A study of Homo sapiens with 40 samples.

Results

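LINC00473 is a long non-coding RNA, and the results below follow this single gene through the 10 groups of the series, as 1 of 15788 rows in the deposited table and 1 of 12591 rows with a mean of at least 1 TPM. It was chosen because earlier results of these data had shown its graded response to the agonist doses, so its levels, dose steps and ceiling are given as a description, with no test. BEAS-2B, an immortalised line of human bronchial epithelium, was grown to confluence, kept overnight without serum and treated for 2 h, with 4 libraries in each group. The treated groups received RNO (roflumilast N-oxide, an inhibitor of the PDE4 phosphodiesterases) at 1 uM, ONO-AE1-329 (ONO, an agonist of the prostaglandin receptor EP4) at 0.1 nM, 1 nM or 1 uM, vilanterol (a long-acting bronchodilator that raises cAMP) at 100 nM, or 1 of these 4 agonist treatments together with RNO, and the remaining group received vehicle. The series asks what EP4 activation does to gene expression in airway epithelial cells. Nothing says that replicates came from separate cultures, so a p-value here measures spread between libraries that may be technical.

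As background, EP4 agonists and vilanterol both raise cAMP, PDE4 enzymes break cAMP down, and cAMP activates protein kinase A, which phosphorylates the transcription factor CREB at cAMP response elements. Protein kinase A also restrains the salt-inducible kinases (SIKs), which otherwise hold the CREB coactivators CRTC1 to CRTC3 in the cytoplasm. LINC00473 is known from other human cells as a primate RNA that CREB and the CRTC proteins induce, that is abundant in lung cancers lacking the SIK-activating kinase STK11 (LKB1), and that binds the nuclear protein NONO.

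LINC00473 lies on chromosome 6 on the minus strand, and RefSeq gives it 2 non-coding transcripts. Its promoter window, 250 bases before to 50 bases after the annotated start (RefSeq, GRCh38.p14, chr6:165987990-165988289, minus strand), is shown because the gene followed the cAMP agonists. Capitals mark each match, on either strand, to TGACGTC, the cAMP response element TGACGTCA without its last base.
LINC00473: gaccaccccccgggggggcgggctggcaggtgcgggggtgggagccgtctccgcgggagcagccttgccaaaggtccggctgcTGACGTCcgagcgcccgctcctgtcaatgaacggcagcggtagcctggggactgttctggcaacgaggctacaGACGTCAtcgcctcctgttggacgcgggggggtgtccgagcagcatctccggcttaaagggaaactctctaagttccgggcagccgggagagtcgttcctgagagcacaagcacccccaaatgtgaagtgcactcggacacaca
The match on the gene's own strand began at position -167 and the match on the opposite strand at position -94, counted from the start. The complete 8-base TGACGTCA was not in this window, nor were CCAAT or TATAA. Of 35116 RefSeq windows of the same length, 3.45% held TGACGTC and 0.171% held it at 2 or more places that did not overlap, while 1.85% held TGACGTCA and 24.6% held the shorter TGACG, which is contained in both. A match describes letters only.

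LINC00473 was at 9.46 ± 3.17 TPM in vehicle-treated cells (SD, n = 4), with 6.16, 12.9, 7.46 and 11.3 TPM in replicates 1 to 4. With ONO it averaged 10.7 ± 3.34 TPM at 0.1 nM, 27.0 ± 2.55 TPM at 1 nM and 68.5 ± 5.33 TPM at 1 uM. The replicates were at 6.57, 12.3, 9.60 and 14.2 TPM at 0.1 nM, at 24.0, 30.2, 27.1 and 26.6 TPM at 1 nM, and at 71.9, 63.8, 64.1 and 74.2 TPM at 1 uM. The lowest dose overlapped vehicle, every library at 1 nM lay above every library at 0.1 nM, and every library at 1 uM lay above every library at 1 nM. The fold over vehicle was 1.13 at 0.1 nM, 2.86 at 1 nM and 7.24 at 1 uM. On the log2(TPM + 1) scale the differences from vehicle were 0.16, 1.47 and 2.78, each with a standard error of 0.18 from the spread shared by all groups. That shared value does not show how unlike the groups were. The SD was 33.6% of the mean in vehicle and 31.3% with 0.1 nM ONO, but 9.43% with 1 nM and 7.79% with 1 uM. It also leaves out the pairing by replicate number. Of all genes tested, 0.723% had libraries with 0.1 nM ONO that lay entirely above vehicle, 2.34% had them with 1 nM and 4.66% with 1 uM.

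The step between neighbouring doses was alike in ratio. LINC00473 at 1 nM was 2.53-fold its level at 0.1 nM, and at 1 uM it was 2.54-fold its level at 1 nM, although the second step spans a far wider range of dose. In absolute terms the steps were 16.3 and 41.5 TPM. The alike ratios are of levels that include the vehicle level. The increases over vehicle, at 1.23 TPM with 0.1 nM, 17.5 TPM with 1 nM and 59.0 TPM with 1 uM, were not alike in ratio. Libraries lay apart in this way in 1.59% of all genes tested for the first step and 3.52% for the second. Among all genes tested, LINC00473 had the second highest log2 difference from vehicle at 1 nM ONO and the fourth highest at 1 uM. It stood at place 455 with 0.1 nM ONO, 7 with vilanterol and 29 with RNO.

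**Figure D1:**
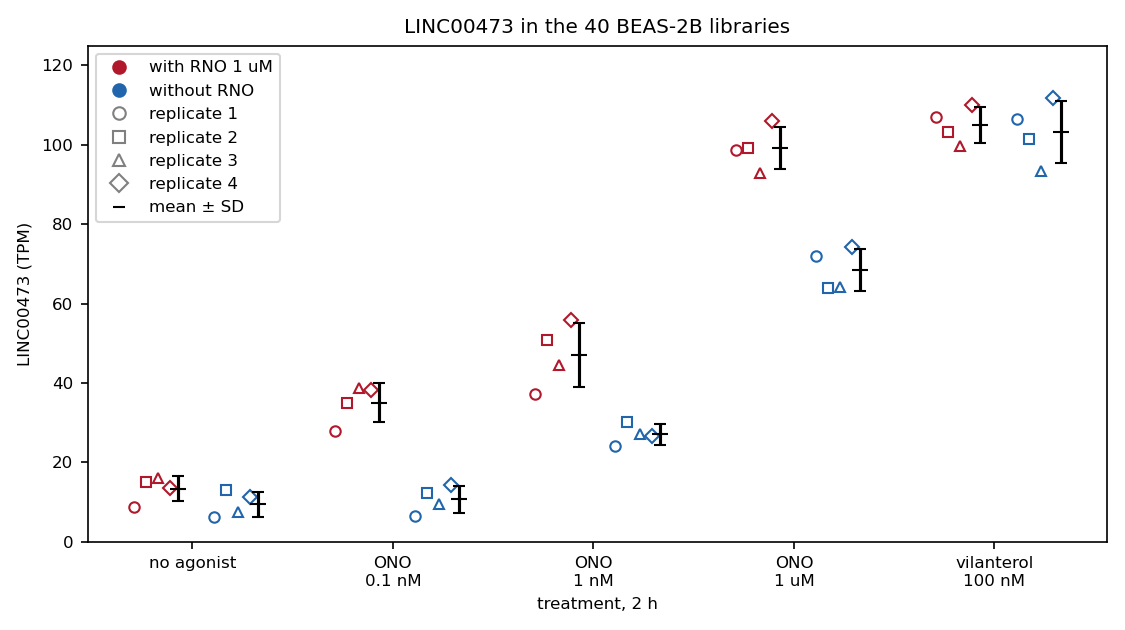
LINC00473 level in TPM (y axis) in each of the 40 libraries, by agonist treatment (x axis, low to high ONO dose, then vilanterol), with RNO on the left (red) and without RNO on the right (blue) of each treatment. Open symbols are single libraries by replicate number and the black bar is the mean ± SD of 4; the no-agonist libraries without RNO (vehicle) averaged 9.46 TPM and those with vilanterol + RNO 105 TPM.

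Vilanterol gave the highest level of any single agent. The 4 libraries were at 107, 101, 93.5 and 112 TPM, a mean of 103 ± 7.81 TPM (SD, n = 4) or 10.9-fold over vehicle. No library overlapped vehicle, as for 8.17% of all genes tested. The level with ONO at 1 uM, which the labels call a maximal concentration, was 0.663 times that with vilanterol, a difference of -34.8 TPM. All 4 libraries with 1 uM ONO lay below all 4 with vilanterol, with same-number ratios of 0.630 to 0.685, and such a separation was found in 4.34% of all genes tested. By level, LINC00473 stood at place 1066 of the 15788 rows with vilanterol, 1650 with 1 uM ONO and 7682 in vehicle. Among rows named LINC it was the highest with vilanterol and with 1 uM ONO, and at place 20 in vehicle.

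With RNO alone LINC00473 was little higher than in vehicle. The 4 libraries were at 8.76, 15.1, 16.0 and 13.6 TPM, a mean of 13.4 ± 3.22 TPM against 9.46 ± 3.17 TPM in vehicle (SD, n = 4 each). The groups overlapped, although the RNO library was the higher one for each of the 4 replicate numbers, by 3.91 ± 3.08 TPM (SD of the same-number differences). Of all genes tested, 1.59% had RNO libraries that all lay above vehicle.

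With 0.1 nM ONO, a dose whose libraries overlapped vehicle, RNO brought LINC00473 to 28.0, 35.0, 38.7 and 38.2 TPM, a mean of 35.0 ± 4.94 TPM against 10.7 ± 3.34 TPM with 0.1 nM ONO alone. The ratio of means was 3.27 and the same-number ratios ran from 2.68 to 4.26. This was the second highest log2 difference of all genes tested in that comparison. For RNO added to 1 nM ONO, 1 uM ONO and vilanterol, LINC00473 stood at places 17, 36 and 3643. With 1 nM ONO + RNO the libraries were at 37.2, 50.8, 44.4 and 55.9 TPM, a mean of 47.1 ± 8.08 TPM, 1.74-fold over 1 nM ONO alone. With 1 uM ONO + RNO they were at 98.7, 99.1, 93.0 and 106 TPM, a mean of 99.2 ± 5.32 TPM, 1.45-fold over 1 uM ONO alone. At each of the 3 ONO doses the libraries with RNO all lay above those without it. Such a separation was found in 2.57% of all genes tested at 0.1 nM, 2.07% at 1 nM and 3% at 1 uM.

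The ratio between libraries with and without RNO was smaller at each higher ONO dose, while the absolute difference did not follow the dose in 1 direction. RNO added 24.3 ± 3.40 TPM at 0.1 nM ONO, 20.1 ± 6.83 TPM at 1 nM and 30.7 ± 3.65 TPM at 1 uM (mean ± SD of 4 same-number differences). Under RNO the step between 0.1 nM and 1 nM was 1.35-fold, with overlapping libraries, and the step between 1 nM and 1 uM was 2.11-fold, without overlap (as in 5.39% of all genes tested). The libraries of 0.1 nM ONO + RNO also overlapped those of 1 nM ONO alone.

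**Figure D2:**
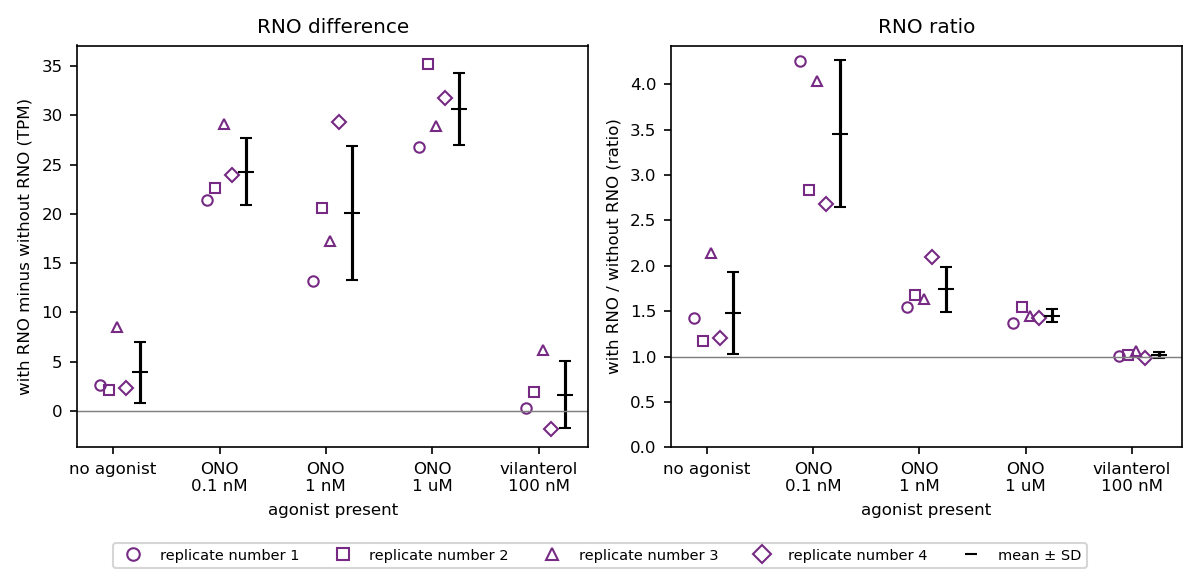
Difference in TPM (left panel) and ratio (right panel) of LINC00473 between libraries with and without RNO that carry the same replicate number, by the agonist present (x axis). Open symbols are the 4 replicate numbers and the black bar is their mean ± SD; the differences average 24.3 TPM with 0.1 nM ONO, 30.7 TPM with 1 uM ONO and 1.64 TPM with vilanterol, and same-number ratios reach 4.26 with 0.1 nM ONO.

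With vilanterol, the groups with and without RNO differed by less than the spread between their libraries. Vilanterol + RNO gave 107, 103, 99.7 and 110 TPM, a mean of 105 ± 4.44 TPM against 103 ± 7.81 TPM with vilanterol alone (SD, n = 4 each). The difference was 1.64 ± 3.40 TPM, 3 of 4 same-number pairs were higher and the libraries overlapped. Libraries with RNO lay above those without it in 0.437% of all genes tested.

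The 12 libraries of the 3 highest groups, 1 uM ONO + RNO, vilanterol and vilanterol + RNO, lay between 93.0 and 112 TPM. Under RNO the gap between the agonists was smaller. LINC00473 with 1 uM ONO + RNO was 0.945 times its level with vilanterol + RNO, a difference of -5.77 ± 2.02 TPM. The 2 groups overlapped, yet in each of the 4 same-number pairs the ONO library was the lower one.

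The increase over vehicle with both agents was larger than the sum of the 2 separate increases at every ONO dose and not with vilanterol. For 0.1 nM ONO the combined increase was 25.5 TPM and the summed separate increases were 5.14 TPM, an excess of 20.4 ± 1.15 TPM (SD over 4 replicate numbers). The excess was 16.2 ± 8.30 TPM at 1 nM and 26.8 ± 5.60 TPM at 1 uM, positive for each of the 4 replicate numbers at all 3 doses. For vilanterol it was -2.26 ± 1.63 TPM and negative for each of the 4. On the log2 scale RNO is measured as a ratio. The interaction of RNO was there 1.18 with 0.1 nM ONO, 0.29 with 1 nM, 0.05 with 1 uM and -0.45 with vilanterol. Each had a standard error of 0.25, which again comes from the spread shared by all groups and leaves out the pairing.

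In order of mean level the groups ran vehicle, 0.1 nM ONO, RNO, 1 nM ONO, 0.1 nM ONO + RNO, 1 nM ONO + RNO, 1 uM ONO, 1 uM ONO + RNO, vilanterol and vilanterol + RNO. Of the 9 neighbouring pairs in this order 6 overlapped. The 3 that did not were RNO and 1 nM ONO, 1 nM ONO + RNO and 1 uM ONO, and 1 uM ONO with and without RNO. Of all genes tested, 1.51% had every 1 nM ONO library above every RNO library, and 1.85% had every 1 uM ONO library above every 1 nM ONO + RNO library. The SD was between 2.55 and 8.08 TPM in all groups. The coefficient of variation was 24.1% to 33.6% in RNO, 0.1 nM ONO and vehicle, the 3 groups with the lowest means, and between 4.24% and 17.2% in the other 7, where it did not follow the level in 1 direction. Replicate 1 was the lowest library in each of the 6 groups with the lowest means. In the 4 highest groups the lowest library was replicate 2 or 3 and the highest was replicate 4. Vehicle replicate 3 was seen to stand apart in earlier results of these data. Its LINC00473 level of 7.46 TPM lay inside the vehicle range, and without it the fold over vehicle was 6.77 with 1 uM ONO and 10.2 with vilanterol.

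The annotation limits what the row measures. In RefSeq the gene PDE10A, a cyclic nucleotide phosphodiesterase, spans LINC00473 on the same strand, and the way the authors' annotation divided reads between them is not given in the sources used here. PDE10A lay between 0.0163 and 0.203 TPM in the 40 libraries and did not exceed 0.123 ± 0.0812 TPM (SD, n = 4) in any group mean. None of the 5 nearest genes on either side had a row. Of the listed genes of the region with a row above the level filter, SFT2D1, MPC1 and RPS6KA2, 0 of 3 passed the test in any of 9 comparisons (each single agent against vehicle, and each agonist with RNO against the agonist alone), where at most 9.69% of all genes rose and 7.97% fell. RPS6KA2, a ribosomal S6 kinase, was at 9.40 ± 0.409 TPM with vilanterol and 8.23 ± 1.06 TPM in vehicle (adjusted p = 0.051 with limma). With the replicate number as a block RPS6KA2 rose with 1 nM ONO, 1 uM ONO and vilanterol (adjusted p = 0.0011 with vilanterol), as did 4.64%, 9.02% and 16.2% of all genes.

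The genes whose group means followed LINC00473 most closely were found by Pearson correlation over the 10 group means of log2(TPM + 1), among 12590 other tested genes. The choice depends on the measure: of the 10 highest, 1 is among the 10 highest by Spearman's correlation over the same means and 6 by Pearson's over the 40 libraries. High values were common: 694 genes, 5.51%, exceeded 0.9. The 10 highest were WDR66 (a WD-repeat protein of cilia), TM4SF1 (a surface protein of the tetraspanin-like family), CD200 (a surface ligand that restrains myeloid cells), DMBT1 (a mucosal scavenger protein), RELL1, NR3C1 (the glucocorticoid receptor), PLPP3 (a lipid phosphate phosphatase), PDE4D, CES3 (a carboxylesterase) and AVPI1. Their correlations ran from 0.992 to 0.999. These genes were picked on the values that follow, which are a description.

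The 10 differed widely in the size of their range. LINC00473 spanned 3.39 log2 units between its lowest and highest group means, TM4SF1 2.89, CD200 2.58, PDE4D 2.35 and RELL1 0.52. TM4SF1 had 226 ± 17.8 TPM with 1 uM ONO, 354 ± 14.6 TPM with vilanterol and 48.9 ± 6.20 TPM in vehicle (SD, n = 4). CD200 had 9.46 ± 0.527, 14.0 ± 0.715 and 1.62 ± 0.322 TPM in the same groups. WDR66, first by correlation, stayed between 31.2 and 62.1 TPM over all 40 libraries.

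They also differed in whether they followed LINC00473 within a group. With the group means removed, so that only differences among replicates remain, the correlation over 40 libraries was 0.81 for PDE4D, 0.77 for CD200 and WDR66, 0.75 for AVPI1 and 0.74 for PLPP3. It was 0.35 for TM4SF1, 0.33 for CES3, 0.03 for RELL1, -0.12 for DMBT1 and -0.36 for NR3C1. Libraries of the same replicate number share deviations in this series, which enters these values. The 3 most opposite genes were MAP3K13, PLK1 and CCNF, a stress kinase, a mitotic kinase and a cyclin, at -0.997, -0.994 and -0.993. MAP3K13 spanned only 0.15 log2 units, and over the 40 libraries its correlation was -0.61.

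Genes that cAMP and CREB are known to induce were taken as a list of 26, chosen with earlier results of these data known. Of these, 21 were tested, while SIK1, PCK1 and SST had no row and PPARGC1A and VGF lay under a mean of 1 TPM. The test was limma on log2(TPM + 1), adjusted by Benjamini-Hochberg over all 12591 genes in each comparison. With 1 uM ONO 15 of 21 rose and 0 fell, against 4.19% of all genes tested that rose and 3.02% that fell. With vilanterol 18 of 21 rose and 0 fell, against 9.69% and 7.97%. With 1 nM ONO 6 rose and 0 fell, against 0.651% and 0.357%, and these were BDNF, NR4A2, NR4A3, PDE4B, PDE4D and RGS2. The list's median log2 difference was 0.18 at 1 nM, 0.75 at 1 uM and 1.35 with vilanterol, beside a median of all genes within 0.01 of 0. With the replicate number as a block, limma called 1066 genes with 1 nM ONO, 2090 with 1 uM ONO and 3931 with vilanterol, in place of 127, 908 and 2223. The list then gave 8 higher and 2 lower (CEBPB and CREM) with 1 nM ONO, 16 and 0 with 1 uM ONO, and 19 and 0 with vilanterol. Of all genes the block called 4.64% higher and 3.83% lower with 1 nM ONO, 9.02% and 7.58% with 1 uM ONO, and 16.2% and 15% with vilanterol.

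The orphan nuclear receptors NR4A3 and NR4A2 had the largest log2 differences of the list with both agonists, followed by RGS2. NR4A3 had 36.2 ± 3.94 TPM with 1 uM ONO, 73.3 ± 6.05 TPM with vilanterol and 1.35 ± 0.495 TPM in vehicle (SD, n = 4; adjusted p = 4.4e-18 and 3e-21). RGS2, a brake on G protein-coupled receptors, had 47.3 ± 14.9 TPM with 1 uM ONO, 80.8 ± 21.8 TPM with vilanterol and 6.33 ± 0.556 TPM in vehicle (adjusted p = 2.6e-11 and 1.3e-14). BDNF, a secreted growth factor, had 27.8 ± 2.69 TPM with 1 uM ONO, 40.6 ± 2.43 TPM with vilanterol and 12.2 ± 1.79 TPM in vehicle (adjusted p = 3.5e-10 and 6.6e-15). The 3 members that did not pass with vilanterol were FOS, at 2.87 ± 0.528 TPM and 2.21 ± 0.323 TPM in vehicle, CEBPB, at 29.4 ± 6.41 TPM and 21.0 ± 5.58 TPM in vehicle (adjusted p = 0.19, and 0.00013 with the block), and PER2, at 1.61 ± 0.211 TPM and 1.64 ± 0.190 TPM in vehicle.

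RNO alone raised 2 of the 21, PDE4B and PDE4D, and lowered 0, where 0.103% of all genes rose and 0.135% fell. PDE4D, itself a target of RNO, had 3.45 ± 0.727 TPM with RNO against 2.18 ± 0.401 TPM in vehicle (adjusted p = 0.022). With the replicate number as a block 5 rose, adding BDNF, NR4A3 and RGS2, and CEBPB and JUNB fell, and the number of genes called was 643 in place of 30, 2.52% of all genes higher and 2.59% lower. Only 1 of the 21 rose with RNO when vehicle replicate 1 or 3 or RNO replicate 2, 3 or 4 was left out. ONO at 0.1 nM raised 0 of 21 and 0% of all genes in limma, where 736 genes had an unadjusted p under 0.05. With the block, PDE4B rose there, at 1.54 ± 0.233 TPM against 0.990 ± 0.104 TPM in vehicle (adjusted p = 0.042), where 0.0159% of all genes rose and 0.0635% fell.

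Added to 0.1 nM ONO, RNO raised 7 of the 21 and lowered 0, against 0.659% of all genes that rose and 0.0635% that fell. They were BDNF, DUSP1, NR4A1, NR4A2, NR4A3, PDE4D and RGS2. NR4A3 had 9.62 ± 1.33 TPM with 0.1 nM ONO + RNO against 1.66 ± 0.679 TPM with 0.1 nM ONO alone (adjusted p = 2.5e-09). DUSP1, a phosphatase of MAP kinases, had 111 ± 5.93 TPM against 60.3 ± 8.17 TPM (adjusted p = 0.00021). Added to 1 nM ONO, RNO raised 6, CREM, DUSP1, NR4A2, NR4A3, PDE4D and RGS2, against 0.222% of all genes that rose and 0.0159% that fell. That count was 3 without 1 nM ONO replicate 3 or 4, or without 1 nM ONO + RNO replicate 2 or 4.

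Added to 1 uM ONO, RNO raised 4, DUSP1, NR4A2, NR4A3 and PDE4D, against 0.532% of all genes that rose and 0.0715% that fell. With the block the count was 13, and it was 2 without 1 uM ONO replicate 2. Added to vilanterol, RNO raised 0 of 21 and 0% of all genes in limma, with 180 genes at an unadjusted p under 0.05, and 0 of 21 with the block. These comparisons share libraries with those against vehicle. With the block RNO raised 9 of 21 at 0.1 nM ONO and 8 of 21 at 1 nM, and the genes called were 325, 151 and 464 for RNO added to 0.1 nM, 1 nM and 1 uM ONO, in place of 91, 30 and 76. Of all genes the block then called 1.99% higher and 0.596% lower at 0.1 nM, 0.969% and 0.23% at 1 nM, and 2.78% and 0.905% at 1 uM.

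**Figure D3:**
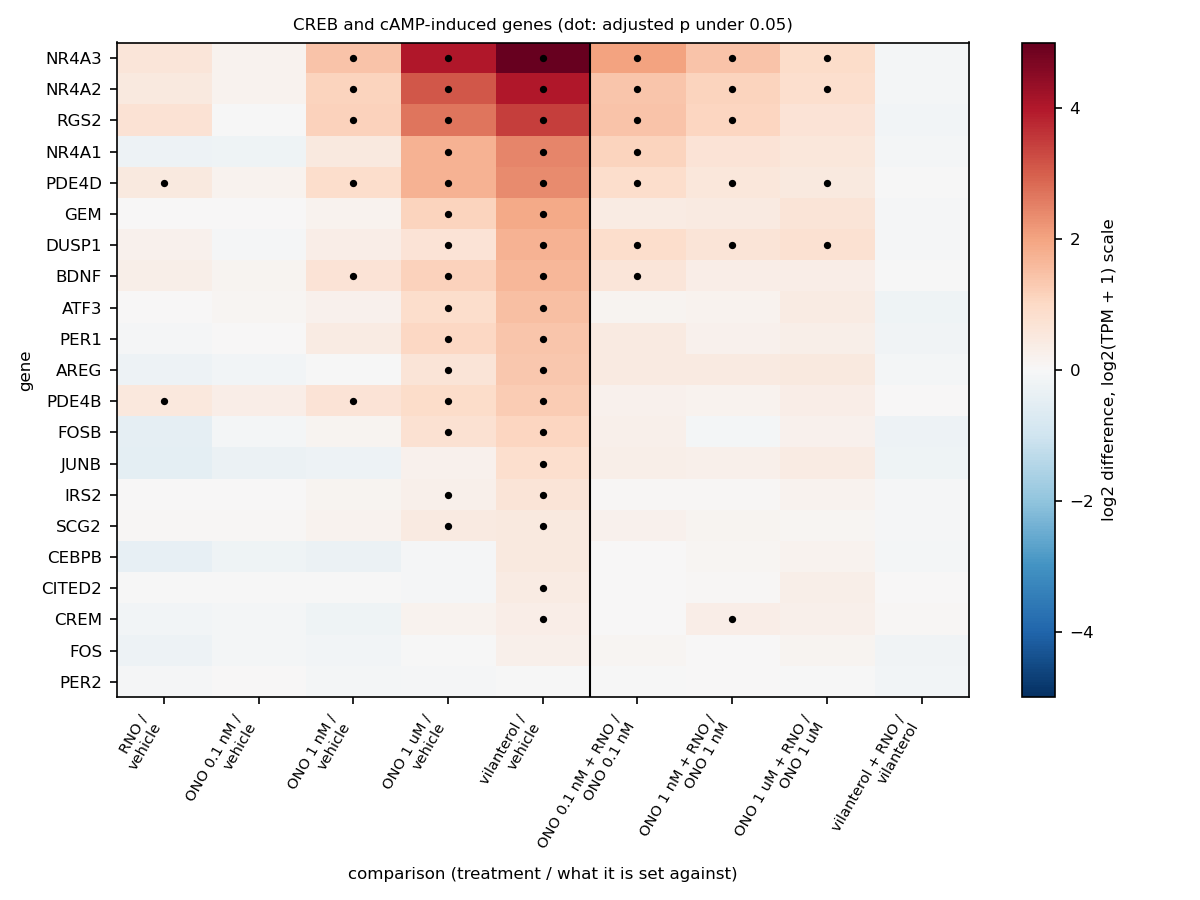
Log2 difference on the log2(TPM + 1) scale (colour) of the 21 tested cAMP- and CREB-induced genes (rows, ordered by the difference with vilanterol) in 9 comparisons (columns: left, single agents against vehicle; right, agonist with RNO against the agonist alone). Dots mark an adjusted p under 0.05 in limma over all genes; 18 genes have a dot with vilanterol, 15 with 1 uM ONO, 6 with 1 nM ONO and 0 with 0.1 nM ONO.

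Set on the scale of its own response to vilanterol, LINC00473 stood further along than most of the 18 list genes that rose with vilanterol, at low and at high stimulation. Its increase with 1 nM ONO was 18.7% of that with vilanterol, while the median of the 18 was 8.26% and 12 of them lay below LINC00473. Some of those lay under their vehicle level, with a lowest share of -52.2%. With 0.1 nM ONO + RNO it reached 27.2%, with a median of 13.9% and 14 below. With 1 uM ONO it reached 62.9%, with a median of 51.3% and 15 below, and with 1 uM ONO + RNO 95.6%, with a median of 88.2% and 14 below. NR4A3 reached 5.52% with 1 nM ONO and 48.4% with 1 uM, whereas PDE4D reached 20.6% and 57.3%. The 10 genes most like LINC00473 had a median of 24.0% at 1 nM ONO, with 8 of 10 above LINC00473. At 1 uM ONO their median was 65.6%, with 7 of 10 above it. These 10 were picked for their shape on the log2 scale. With the same log2 shape a gene of smaller span has a larger linear share, so these shares follow in part from the span. WDR66, with a span of 0.87 log2 units, was at 38.4% with 1 nM ONO, and TM4SF1, with 2.89, was at 16.2%. These shares are on the linear TPM scale and were not tested, since LINC00473 was chosen for its pattern.

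**Figure D4:**
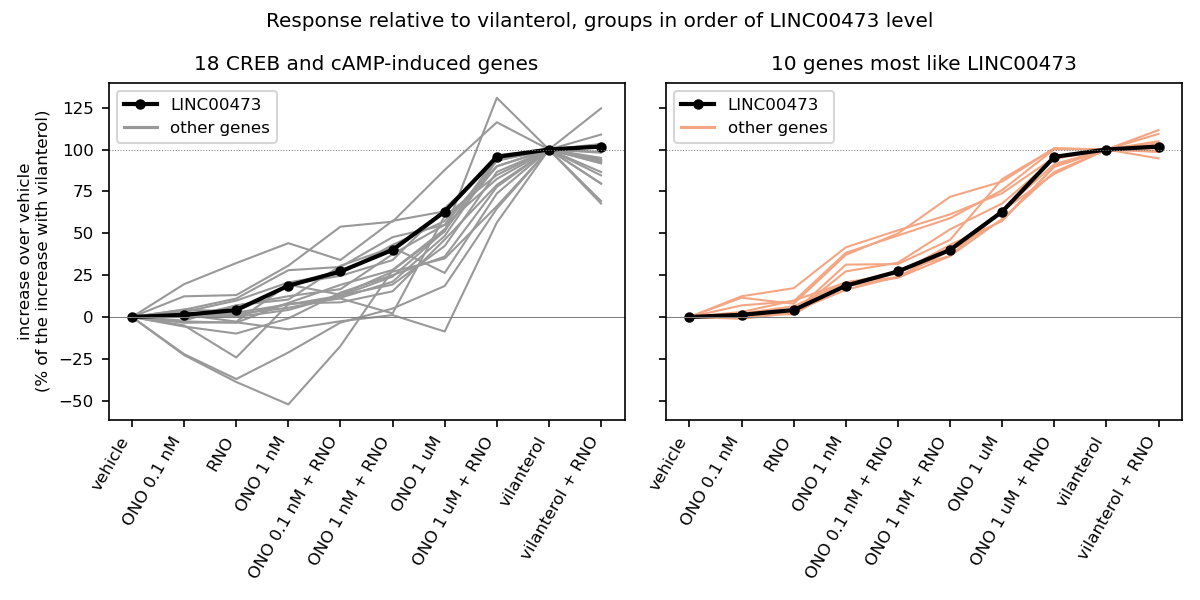
Increase over vehicle as a percentage of the increase with vilanterol (y axis, from group means in TPM) in the 10 groups, ordered by the LINC00473 level (x axis). LINC00473 is the black line, beside the 18 cAMP- and CREB-induced genes that rose with vilanterol (left, grey) and the 10 genes most like it (right, orange); with 1 uM ONO, LINC00473 is at 62.9% and the median of the 18 genes at 51.3%.

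Sequence matches were looked up for both sets. Of the 10 genes most like LINC00473, 8 had a promoter window in the RefSeq table and 1, AVPI1, held TGACGTC. Of the 26 listed genes 23 had a window and 8 held it, 5 of them as TGACGTCA, where 3.45% of all windows held TGACGTC. Several genes had more than 1 window, and any of them counted, so the counts of genes and the share of windows are unlike measures. The listed genes were chosen as known to be induced by cAMP and CREB, so matches among them are not a result of these data. Up to 11 bases on each side of the match are shown for AVPI1 and for the listed genes with a match that rose with vilanterol, with the match in capitals (GRCh38.p14), to be set beside the 2 matches of LINC00473.
AVPI1 (chr10:97687465-97687491, minus strand): ctggggacTGACGTCAatgaagggggc
NR4A3 (chr9:99821791-99821819, plus strand): tggcgtcacatTGACGTCtcgcattccag
RGS2 (chr1:192808845-192808873, plus strand): ccggggccgcaGACGTCAgcagcgccccg
DUSP1 (chr5:172771350-172771378, minus strand): tccgaggctgaTGACGTCtccccctctgg
DUSP1 (chr5:172771302-172771331, minus strand): ggcagggcgggTGACGTCAccgccccgtca
CREM (chr10:35195841-35195870, plus strand): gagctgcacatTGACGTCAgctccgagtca
AREG (chr4:74445060-74445089, plus strand): cggccgggcctTGACGTCAtgggctgcggc
Like LINC00473, NR4A3 and RGS2 held the 7-base match and not TGACGTCA, and DUSP1 was the other gene here with 2 separate matches. PDE4D, NR4A1, PER1, BDNF, ATF3, FOSB, JUNB, PDE4B, SCG2, CITED2 and IRS2 also rose with vilanterol and had no match in their windows. NR4A2 and GEM rose and had no window.

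Transcripts of the proteins through which CREB acts were taken as a list of CREB proteins, coactivators and SIK kinases, with 11 tested. With vilanterol 4 of 11 rose and 0 fell, beside 9.69% and 7.97% of all genes, and with 1 uM ONO 1 rose and 0 fell, beside 4.19% and 3.02%. With RNO, 0.1 nM ONO or 1 nM ONO 0 of 11 passed, where at most 0.651% of all genes rose and 0.357% fell. SIK2 rose with 1 uM ONO (12.3 ± 0.860 TPM against 7.81 ± 1.58 TPM in vehicle, adjusted p = 9.9e-06) and with vilanterol (14.7 ± 1.00 TPM, adjusted p = 7.6e-09). With vilanterol CREM, CREBBP and CRTC3 also rose, by 0.34, 0.31 and 0.19 log2 units (adjusted p = 0.00022, 0.014 and 0.029). CREM also rose when RNO was added to 1 nM ONO (9.83 TPM against 7.69 TPM, adjusted p = 0.022). With the block SIK2 rose and CREM fell with 1 nM ONO, CREM and CRTC3 rose with 1 uM ONO, CREM rose when RNO was added to 1 uM ONO, and CRTC1 fell with vilanterol (adjusted p = 0.018). Of all genes the block called 4.64% higher and 3.83% lower with 1 nM ONO, 9.02% higher with 1 uM ONO and 15% lower with vilanterol. It called 2.78% higher when RNO was added to 1 uM ONO. CREB1, ATF1, CRTC2, EP300, SIK3 and STK11 passed in none of the 9 comparisons with or without the block, and CREB1 was at 6.91 ± 0.435 TPM with vilanterol and 7.12 ± 0.424 TPM in vehicle. STK11, the SIK-activating kinase named above, was at 25.8 ± 0.593 TPM with vilanterol and 26.3 ± 3.16 TPM in vehicle.

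NONO, the known partner of LINC00473, was at 235 ± 3.98 TPM with 1 uM ONO, 230 ± 4.97 TPM with vilanterol and 234 ± 4.84 TPM in vehicle. NONO, SFPQ, PSPC1 and NEAT1, components of nuclear paraspeckles, gave 0 of 4 calls in the 9 comparisons named above, where at most 9.69% of all genes rose and 7.97% fell. Set against RNO alone, PSPC1 and SFPQ rose with 1 uM ONO + RNO by 0.15 and 0.14 log2 units and NEAT1 fell to 81.4 TPM against 107 TPM (adjusted p = 0.013, 0.02 and 0.038), beside 6.76% of all genes that rose and 5.2% that fell. PSPC1 and SFPQ also rose with vilanterol + RNO against RNO (adjusted p = 0.0071 and 0.0026), where 8.28% of all genes rose and 7.26% fell. In that comparison NEAT1 was at 93.4 TPM against 107 TPM (adjusted p = 0.355 with limma, and 0.024 with the block). Against vehicle PSPC1 alone of the 4 rose with 1 uM ONO + RNO and with vilanterol + RNO, where 8.92% and 10% of all genes rose and 6.86% and 8.44% fell. With the block NEAT1, the paraspeckle scaffold RNA, fell with 1 uM ONO to 82.7 ± 9.86 TPM and with vilanterol to 84.4 ± 16.6 TPM, against 98.7 ± 8.43 TPM in vehicle (adjusted p = 0.0068 for both, and 0.28 and 0.21 without the block). PSPC1 and SFPQ then rose with vilanterol by 0.09 and 0.08 log2 units (adjusted p = 0.013 and 0.038), and SFPQ by 0.11 when RNO was added to 1 uM ONO. Of all genes the block called 7.58% lower with 1 uM ONO, and 16.2% higher and 15% lower with vilanterol. It called 2.78% higher when RNO was added to 1 uM ONO.

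Genes of cAMP formation and protein kinase A were taken as a further list. PTGER4, which encodes EP4, fell with vilanterol to 1.06 ± 0.137 TPM, against 1.57 ± 0.0977 TPM in vehicle (adjusted p = 0.0078). The adenylyl cyclases ADCY1 and ADCY9 rose with vilanterol by 0.30 and 0.26 log2 units (adjusted p = 0.031 and 0.021). With the block 4 of the 14 tested rose with 1 uM ONO (ADCY1, ADCY6, ADCY9 and PRKAR1A), beside 9.02% of all genes, and 4 with vilanterol (ADCY1, ADCY6, ADCY9 and PRKAR2A), beside 16.2%. The block also gave PTGER4 as lower with 1 uM ONO, and ADCY6 as higher with RNO (17.0 TPM against 15.1 TPM in vehicle, adjusted p = 0.012). Of all genes it called 7.58% lower with 1 uM ONO and 2.52% higher with RNO. Of 7 tested cAMP phosphodiesterases PDE4B and PDE4D rose with RNO, 1 nM ONO, 1 uM ONO and vilanterol, and the other 5 did not. Both are also in the list of cAMP- and CREB-induced genes. Of all genes 0.103%, 0.651%, 4.19% and 9.69% rose in these comparisons. PDE4D alone rose when RNO was added to 0.1 nM, 1 nM or 1 uM ONO, beside 0.659%, 0.222% and 0.532% of all genes. With 0.1 nM ONO, or with RNO added to vilanterol, 0 of 7 passed, beside 0% of all genes. PDE4D had 13.8 ± 0.375 TPM with 1 uM ONO + RNO against 9.59 ± 0.594 TPM with 1 uM ONO alone (adjusted p = 0.0093).

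Of 100 other tested RNAs named LINC, 2 rose and 2 fell with 1 uM ONO, beside 4.19% and 3.02% of all genes, and 3 rose and 6 fell with vilanterol, beside 9.69% and 7.97%. LINC01128 had 7.66 ± 0.528 TPM with 1 uM ONO, 10.7 ± 0.896 TPM with vilanterol and 4.04 ± 0.340 TPM in vehicle (adjusted p = 5.7e-13 and 1.3e-18). LINC00294 had 13.3 ± 0.734 TPM with 1 uM ONO, 15.5 ± 0.875 TPM with vilanterol and 10.0 ± 0.813 TPM in vehicle (adjusted p = 8.1e-06 and 3.1e-10). LINC00673 rose with vilanterol. LINC01085 fell with both agonists, LINC00467 with 1 uM ONO, and LINC01337, LINC01355, LINC00339, LINC01123 and LINC00998 with vilanterol, by at most 0.73 log2 units. With the block 2 rose and 4 fell with 1 uM ONO, beside 9.02% and 7.58% of all genes, and 4 rose and 15 fell with vilanterol, beside 16.2% and 15%.

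The cell label was checked against markers. Of 7 epithelial markers 3 had a mean of at least 1 TPM, the keratins KRT7, KRT8 and KRT18, EPCAM and CDH1 were under 1 TPM, and 2 had no row. Their summed level was between 548 and 854 TPM over the libraries, with means of 623 TPM with 1 uM ONO, 626 TPM with vilanterol and 803 TPM in vehicle. KRT18 fell with 1 uM ONO (adjusted p = 0.00018) and with vilanterol (adjusted p = 0.00021), KRT7 and KRT18 fell with 1 nM ONO, and KRT8 fell with vilanterol (adjusted p = 0.035), where 0.357% of all genes fell with 1 nM ONO, 3.02% with 1 uM ONO and 7.97% with vilanterol. With the block all 3 fell with RNO, 1 nM ONO and 1 uM ONO, as did 2.59%, 3.83% and 7.58% of all genes, and the part of these in the LINC00473 response was not tested. All these falls are against the same vehicle libraries. The median log2 difference of the 3 from vehicle was -0.27 with RNO, -0.19, -0.33 and -0.32 with rising ONO dose and -0.34 with vilanterol. Against RNO alone, 0 of 3 fell and 1 rose with 1 uM ONO + RNO and with vilanterol + RNO. There 6.76% and 8.28% of all genes rose and 5.2% and 7.26% fell. The mesenchymal markers VIM, COL1A1 and PDGFRB were present, with a summed level of 1762 to 1970 TPM. Of these 0 of 3 were called in the 9 comparisons, where at most 9.69% of all genes rose and 7.97% fell. With the block PDGFRB rose with 1 nM ONO, 1 uM ONO and vilanterol, and COL1A1 with vilanterol, as did 4.64%, 9.02% and 16.2% of all genes. Of 5 leukocyte markers 0 had a row, and 3 of 5 endothelial markers had a row with a sum of at most 0.800 TPM. In such bulk samples, more cells expressing a gene and more RNA per cell cannot be told apart.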

How the data were processed

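The 40 BEAS-2B libraries were directional poly(A) libraries, per the labels' protocols. The series' design text names an Illumina sequencer with 2 sequencing kits and does not say which library had which kit. The submitters' processing notes name bcl2fastq 2.18.0.12, kallisto and sleuth with GRCh37 and hg19, with no version for the last 2 tools. Per gene, the authors deposited a normalised signal, TPM adjusted between samples. Column totals were 956888 to 1091466 and unequal, and medians 8.47 to 9.11; below they are called TPM. With no counts at hand the depth is unknown and no counting intervals are given.

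Groups and replicate numbers came from the labels. Genes whose mean reached 1 TPM, 12591 in all, were fitted as log2(TPM + 1), 1 mean per group, with limma 3.58.1 in R 4.3.3 (30 residual degrees of freedom, intensity trend, Benjamini-Hochberg within each of 27 comparisons, threshold 0.05), checked on simulated data. The simulated libraries were drawn independently of each other, so this check does not cover libraries that deviate together. A log2 difference on this scale understates the change of low genes, and a fold is the ratio of 2 group means in TPM. LINC00473 received no test. The members and lists were chosen with earlier results of these data known. Libraries of the same replicate number deviated together (correlations of deviations from group means 0.124 to 0.542 in all pairs of the 9 comparisons used). The numbers therefore pair the samples, and values with the replicate block stand beside many of the results that they change. Named genes were LINC00473, the 10 most like and 3 most opposite genes over the group means, called members of the lists, all members of the CREB protein, paraspeckle and neighbour lists, the receptors and PDE4 genes, and called LINC-named genes with the 5 highest and 5 lowest differences. The result for 1 listed gene is not reported here. Promoter sequences are RefSeq's (GRCh38.p14) and neighbours come from its gene order. The build differs from the authors', so no coordinates of theirs are given. Alternatives were other pseudocounts (0.5, 0.1), other scalings, no filter, a replicate block, fits of the compared groups alone, and leaving out libraries.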

Additional observations from a re-analysis of the deposited data

Results flagged for a closer look

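Among the 10 genes most like LINC00473 and the 3 most opposite, together with LINC00473 itself, 8 of 140 groups of 4 libraries held a library far from the other 3, and chance flags about 1 in 20 groups. DMBT1 in replicate 1 was at 12.4 TPM with 1 uM ONO + RNO, 12.87 TPM with vilanterol and 13.17 TPM with vilanterol + RNO, above the other libraries of each group, which were at 8.03 to 8.86 TPM with vilanterol. RELL1 was at 12.83 TPM in replicate 1 of vilanterol + RNO, below the others at 13.8 to 13.9 TPM. In vehicle replicate 2, PLPP3 was at 11.34 TPM and CES3 at 1.69 TPM, above the others. MAP3K13 was at 27.21 TPM in vehicle replicate 3 and at 23.88 TPM in RNO replicate 2, above the others.

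For NR4A3 the effect of RNO differed with and without 0.1 nM ONO, with an interaction of 1.421 log2 units (limma, adjusted p = 0.00618). Of all 12591 genes tested, 16 were called higher and 1 lower for this interaction. TM4SF1, WDR66 and PLPP3, picked above for their likeness to LINC00473, were also called, at 1.05, 0.30 and 0.85 log2 units. They were picked on group means that include the groups of this interaction. Their calls therefore follow in part from that choice and add no support. With the replicate number as a block NR4A3 passed (adjusted p = 0.0003 with limma). Of the 21 cAMP- and CREB-induced genes AREG, DUSP1, JUNB, NR4A1, NR4A2 and PER1 then passed as well. The share of all genes that the block called for this interaction is not given here, so these calls have no background beside them. Genes outside the list also passed, among them the keratins KRT7, KRT18 and KRT8 (adjusted p = 0.0054, 0.011 and 0.025 with limma and the block). JUNB lay below vehicle with RNO, with 0.1 nM ONO and with both, at -37.0%, -22.2% and -3.30% of its increase with vilanterol. NR4A3 had 9.62 TPM with 0.1 nM ONO + RNO against 1.66 TPM with 0.1 nM ONO, and 2.65 TPM with RNO against 1.35 TPM in vehicle.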

How the results depend on the processing

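All 126 values of the 9 LINC00473 log2 differences under other settings stayed within 1 SD of the replicates, the replicate block included, which leaves a balanced difference as it is. Many of these settings leave out 1 library, which always moves a mean of 4 libraries by less than their SD. For those settings staying within 1 SD was largely fixed in advance. Leaving out a library gave 0.31 to 0.65 for RNO against vehicle, -0.00 to 0.36 for 0.1 nM ONO, 1.30 to 1.62 for 1 nM, 2.62 to 2.94 for 1 uM and 3.20 to 3.52 for vilanterol. Of the 10 most alike genes, 1 was shared with Spearman's correlation over the group means, 6 with Pearson's over the 40 libraries and 7 to 10 when 1 library was left out.

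Counts of called genes depended on the fit, and the cause was not tested beyond what the fits change by construction. With the replicate block, in order of RNO, 0.1 nM, 1 nM and 1 uM ONO and vilanterol against vehicle, limma called 643, 10, 1066, 2090 and 3931 genes, and for RNO added to 0.1 nM, 1 nM and 1 uM ONO it called 325, 151 and 464. With the block and without vehicle replicate 3 these counts were 252, 4, 612, 1803 and 3377, and 477, 337 and 839. With only the compared groups fitted they were 0 for RNO, 28, 359 and 912 for 1 nM ONO, 1 uM ONO and vilanterol, and 47, 9 and 24 for RNO added to the ONO doses. At an unadjusted p under 0.05 the main fit had 1549 genes for RNO. Rescaling to equal totals gave 14 genes for RNO, in place of 30. Without 1 library the counts were 8 to 57 for RNO, 92 to 273 for 1 nM ONO, and 60 to 84, 11 to 48 and 37 to 77 for RNO added to 0.1 nM, 1 nM and 1 uM ONO.

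Of the 21 cAMP- and CREB-induced genes, RNO raised 5 with the block, 4 with the block and without vehicle replicate 3, 0 with only the compared groups and 1 to 3 without 1 library. ONO at 0.1 nM raised 1 with the block. RNO added to 1 nM ONO raised 2 with only the compared groups and 3 to 6 without 1 library. Added to 1 uM ONO it raised 2 with a pseudocount of 0.1 or only the compared groups, 13 with the block, 14 with the block and without vehicle replicate 3, and 2 to 6 without 1 library. The block moved no other count of rising genes of this list by over 1.5 times, while 2 of the list fell with it for RNO and 2 for 1 nM ONO, in place of 0. Without read counts, depth limits cannot be given.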
